A study of Mus musculus with 12 samples.

Results

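Mitochondrial ribosomal proteins are encoded in the nucleus, made in the cytosol and imported into the mitochondrial matrix, where they assemble with 2 ribosomal RNAs of the mitochondrial genome into a small subunit, which reads the mRNA, and a large subunit, which joins amino acids. This ribosome translates only the mRNAs of the mitochondrial genome, all of which code for subunits of oxidative phosphorylation. Brown adipocytes are packed with mitochondria and use their respiratory chain, uncoupled by Ucp1, to make heat in the cold. The genes were chosen by symbol: every probe set whose only gene symbol is Mrpl or Mrps followed by a number, without pseudogenes, and the brightest probe set of each gene. This gave 71 genes, 43 Mrpl and 28 Mrps, read by 80 probe sets, of 22180 genes on 23521 probe sets with 1 symbol. No filter on brightness was used, so all 71 genes were tested. Another 7 genes (Mrpl30, Mrpl33, Mrpl41, Mrpl43, Mrpl44, Mrpl53 and Mrps6) lay only on probe sets that carry several symbols and were not used.

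Brown adipose tissue RNA was read on 12 whole-transcript expression arrays, 3 in each of 4 groups. The groups were Sel1LAdipCre mice at 4 °C, Sel1L f/f littermates at 4 °C, Sel1LAdipCre mice at room temperature and Sel1L f/f littermates at room temperature. All mice were on the C57BL/6J background, carried the floxed Sel1L alleles and were fasted for 5 h. In Sel1LAdipCre mice an Adiponectin-Cre transgene deletes Sel1L in adipocytes, so other cells of the tissue keep the gene, and littermates without Cre are called controls here. Sel1L works with the ubiquitin ligase Hrd1 to clear misfolded proteins out of the endoplasmic reticulum. The study's design asks what its loss changes at each temperature, here for the ribosome of the mitochondria.

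Values are log2 expression and differences are on the log2 scale. Sel1l read 6.90, 6.73 and 6.54 in the arrays labelled knockout at 4 °C and 6.99, 6.69 and 7.04 in the controls at 4 °C (difference -0.19, adjusted p = 0.605, limma). At room temperature it read 6.18, 6.09 and 5.92 in the arrays labelled knockout and 7.37, 6.96 and 7.23 in the controls (-1.12, adjusted p = 0.00114). The Sel1l reading therefore checked the knockout label at room temperature and not at 4 °C, and the knockout arrays are called labelled knockouts below. Ucp1, the defining gene of brown adipocytes, read between 12.4 and 12.8 on all 12 arrays. The mean of 13 brown adipocyte markers, Ppargc1a among them, was 10.02 to 10.04 in labelled knockouts and 10.24 to 10.28 in controls at 4 °C, which did not overlap, and 9.79 to 9.99 in labelled knockouts and 9.62 to 9.91 in controls at room temperature. The mean of 19 skeletal muscle markers varied widely, at 2.55, 6.36 and 5.59 in labelled knockouts at 4 °C, 5.24, 4.64 and 7.67 in controls at 4 °C, 6.14, 3.01 and 3.73 in labelled knockouts at room temperature, and 6.19, 6.59 and 7.08 in controls at room temperature. Replicate 3 of the controls at room temperature has conflicting labels: its source name gives 4 °C, where its title and temperature characteristic give room temperature, the group used for it here. On this array Ppargc1a, which rises in the cold, read 8.17, against 10.94 to 11.49 in controls at 4 °C and 7.26 and 8.08 in the other controls at room temperature. Ddx28 read 3.60 on it, against 5.03 to 5.59 in controls at 4 °C and 3.63 and 3.78 in the other controls at room temperature. By both genes the array read close to the other controls at room temperature and far from those at 4 °C. In tissue RNA, fewer cells of a type and less RNA per cell cannot be told apart.

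The promoters of 4 genes that the results below turn on are shown here, because Mrpl49 and Mrpl18 were lower in the cold in both genotypes, and Mrpl45 and Mrpl52 moved in opposite directions in labelled knockouts at 4 °C. Each sequence runs 5′ to 3′ over 300 bases, 250 before and 50 after the gene's start, from RefSeq, build GRCm38.p6. Mrpl49 lies at chr19:6057706-6058005 (minus strand), Mrpl18 at chr17:12916042-12916341 (minus), Mrpl45 at chr11:97315466-97315765 (plus) and Mrpl52 at chr14:54426659-54426958 (plus). Capitals mark a match to one of 7 motifs, listed after the sequences.
Mrpl49: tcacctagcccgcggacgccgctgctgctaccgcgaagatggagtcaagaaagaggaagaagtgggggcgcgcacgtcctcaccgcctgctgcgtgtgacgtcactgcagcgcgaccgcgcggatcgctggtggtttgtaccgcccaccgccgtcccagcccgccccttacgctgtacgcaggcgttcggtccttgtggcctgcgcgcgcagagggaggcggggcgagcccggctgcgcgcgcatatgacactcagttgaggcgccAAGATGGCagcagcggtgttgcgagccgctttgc
Mrpl18: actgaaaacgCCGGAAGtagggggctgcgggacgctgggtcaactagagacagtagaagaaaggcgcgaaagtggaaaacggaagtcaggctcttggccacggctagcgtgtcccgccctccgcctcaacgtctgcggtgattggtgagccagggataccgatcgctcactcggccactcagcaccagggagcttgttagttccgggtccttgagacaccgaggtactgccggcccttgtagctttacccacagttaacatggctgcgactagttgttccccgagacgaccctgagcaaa
Mrpl45: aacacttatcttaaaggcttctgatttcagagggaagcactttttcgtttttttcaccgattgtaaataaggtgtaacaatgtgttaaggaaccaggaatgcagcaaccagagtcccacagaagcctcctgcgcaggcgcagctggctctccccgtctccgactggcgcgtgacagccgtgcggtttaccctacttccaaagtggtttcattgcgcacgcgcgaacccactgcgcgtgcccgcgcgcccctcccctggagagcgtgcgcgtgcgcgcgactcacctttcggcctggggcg
Mrpl52: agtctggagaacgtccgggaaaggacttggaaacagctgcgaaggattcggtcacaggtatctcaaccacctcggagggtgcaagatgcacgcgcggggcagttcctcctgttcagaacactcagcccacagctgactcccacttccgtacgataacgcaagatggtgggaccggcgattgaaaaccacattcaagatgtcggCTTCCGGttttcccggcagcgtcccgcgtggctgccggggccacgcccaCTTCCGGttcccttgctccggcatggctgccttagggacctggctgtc
The Mrpl49 promoter holds a YY1 match just after the start, the Mrpl18 promoter an ETS match near its far end, and the Mrpl52 promoter a pair of ETS matches on the opposite strand. The Mrpl45 promoter holds no match to any of the 7 motifs.

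Promoters of 62 of the 71 genes were found, 68 in all because some genes have several starts. Motifs were searched as exact letters on both strands, and no overlap between them was removed. CCGGAAG, the ETS family motif bound by GABP, was in 33.8% of the genes' promoters, against 11.6% of the promoters of all protein-coding genes and 8.86% of all 32851 promoters. AAGATGGC, the YY1 motif, was in 17.6%, against 3.05% and 2.75%. The NRF1 motif was in 4.41%, against 1.33% and 0.971%, and was found in Mrpl9, Mrpl32 and Mrpl39. The motif of estrogen-related receptors, AAGGTCA, was in 5.88% against 4.08% and 4.72%, and the E-box CACGTG in 10.3% against 7.84% and 7.15%. The 7 promoters with the E-box belong to 5 genes (8.06% of the 62), because neighbouring starts of Mrpl2 share the same match. The CARE motif of ATF4, TGATGNAAN, and the ER stress element ERSE had no match in the 68 promoters, against 3.58% and 0.141% of coding promoters. Base composition differed too, with a median GC content of 58.5% in the genes' promoters, 56.3% in coding promoters and 52.7% in all. A match is only a run of letters, and none was tested for binding.

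**Figure D1:**
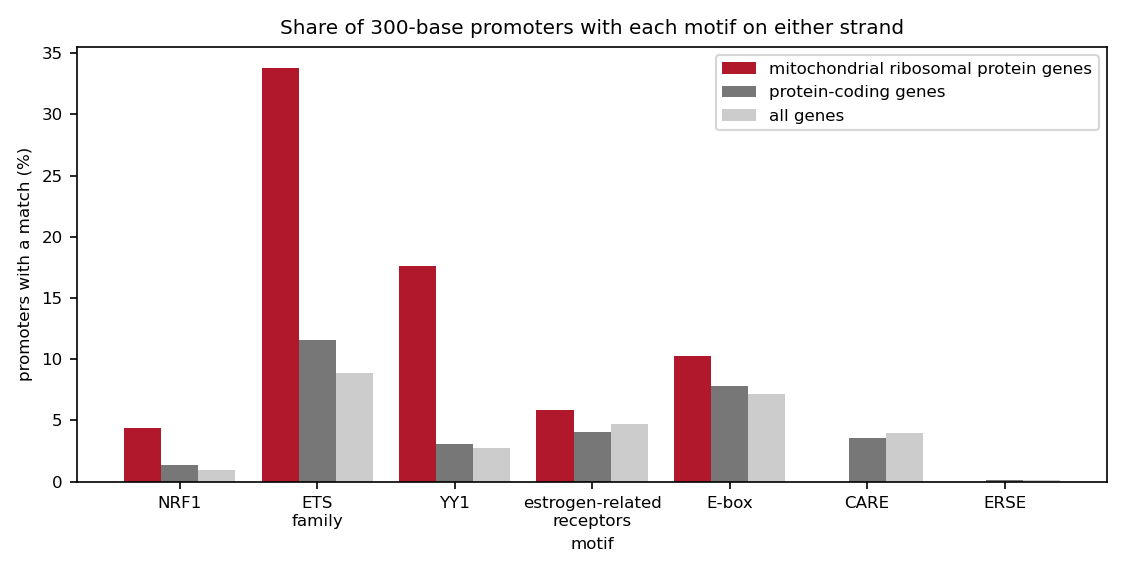
Share of 300-base promoters (%, vertical axis) that hold each motif on either strand, for mitochondrial ribosomal protein genes (68 promoters), all protein-coding genes and all genes. The ETS family bar (33.8%) and the YY1 bar (17.6%) are the tallest of the mitochondrial ribosomal protein genes, and the CARE and ERSE bars are at 0.

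Over the 71 genes, the mean level of an array was 6.00 to 6.11 in labelled knockouts at 4 °C, 6.02 to 6.15 in controls at 4 °C, 6.04 to 6.21 in labelled knockouts at room temperature and 6.14 to 6.29 in controls at room temperature. Labelled knockouts overlapped their controls at each temperature, and each genotype overlapped between the temperatures, while labelled knockouts at 4 °C lay below all controls at room temperature. The 43 Mrpl genes exceeded the 28 Mrps genes by 0.22 ± 0.02, 0.25 ± 0.04, 0.24 ± 0.05 and 0.25 ± 0.06 in the 4 groups in the same order (SD, n = 3 each). These gaps differed between groups by less than the within-group SD of 0.045. Of the 71 genes, 0 differed by 1 or more on the log2 scale between any pair of groups compared below.

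**Figure D2:**
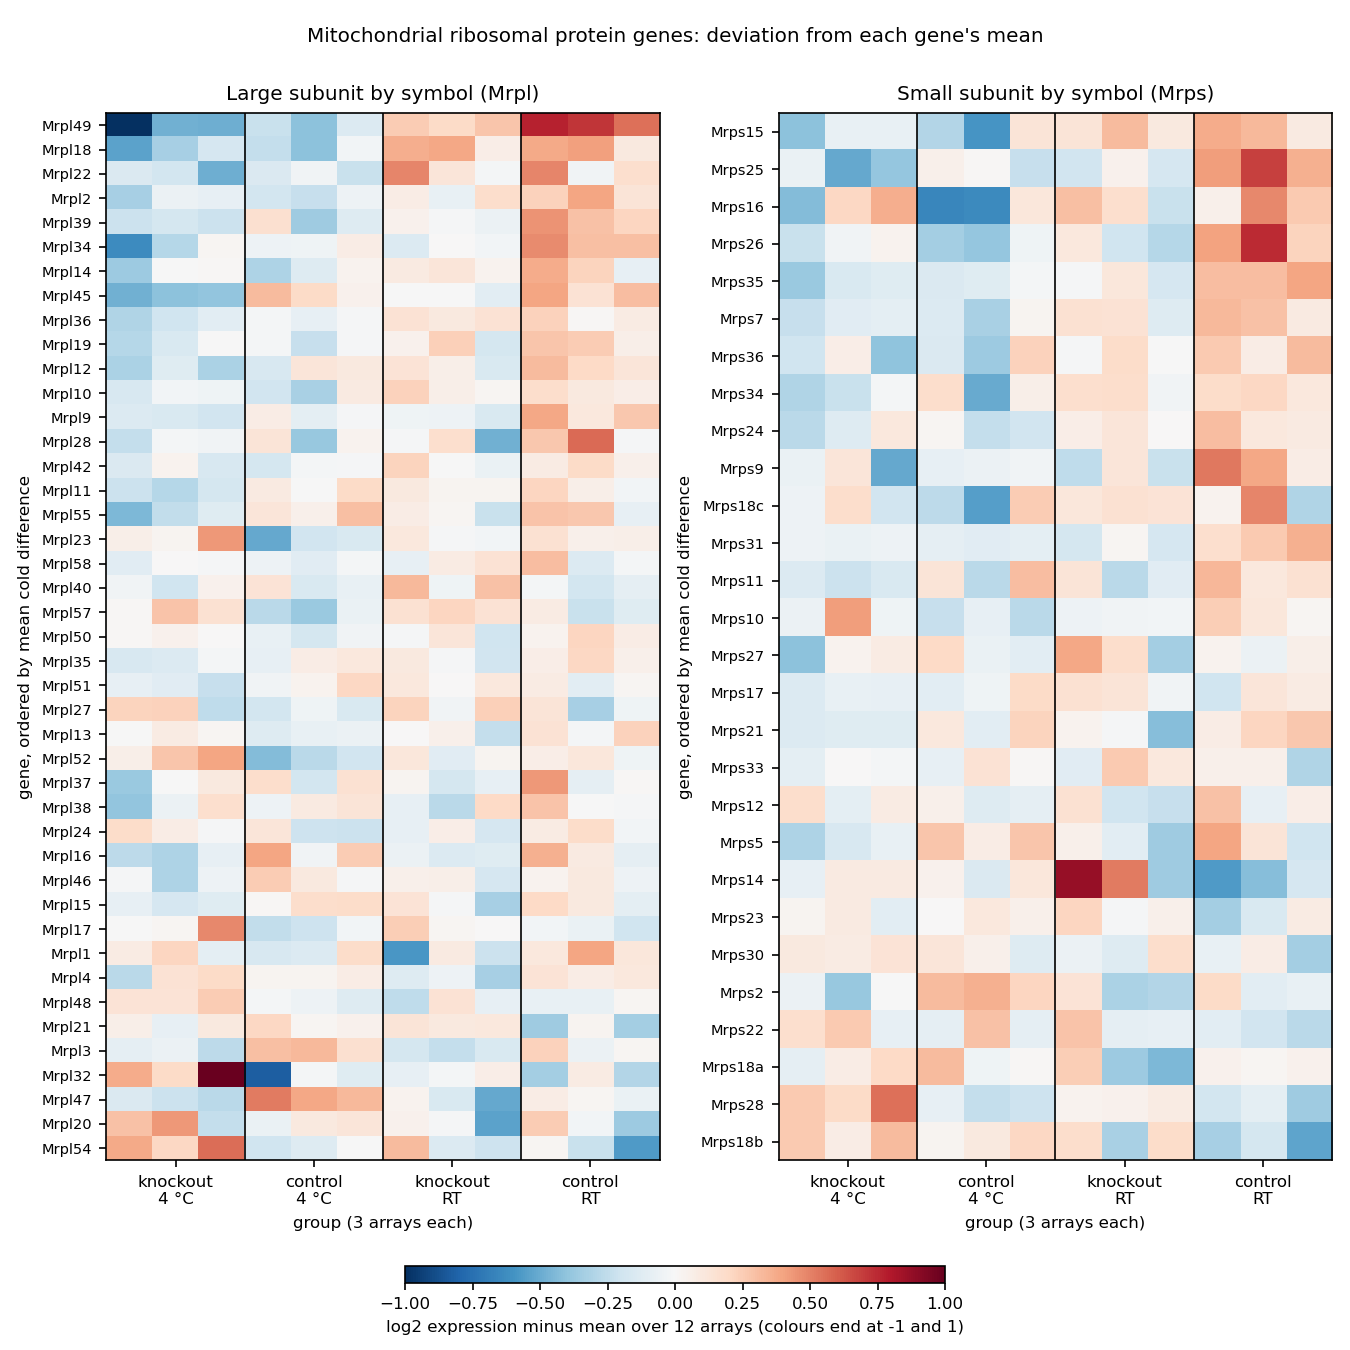
Log2 expression of each gene on each of the 12 arrays minus its mean over the arrays (colour, from -1 to 1), Mrpl genes on the left and Mrps genes on the right, ordered by the mean difference between 4 °C and room temperature. Columns run over labelled knockouts at 4 °C, controls at 4 °C, labelled knockouts at room temperature and controls at room temperature, 3 arrays each; red in the last 3 columns of the upper rows shows the genes that read highest in controls at room temperature, such as Mrpl49 and Mrps25.

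At 4 °C, labelled knockouts differed significantly from controls in 5 of the 71 genes, 2 higher and 3 lower (limma, adjusted p under 0.05 over all 23521 probe sets). Mrpl45, Mrpl47 and Mrpl3 of the large subunit fell, and Mrpl52 of the large and Mrps28 of the small subunit rose, by 1.32- to 1.54-fold. The share of 7.04% compares with 5.80% of all probe sets, or 10.6% of those brighter than the median of the table (2.05), where 70 of the 71 genes lie. Higher calls made up 3.61% and lower calls 2.19% of all probe sets. The median difference was -0.06 for the Mrpl genes, -0.02 for the Mrps genes and -0.01 for all probe sets, and 41 of the 71 genes lay below 0, where 52.4% of all probe sets did.

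Mrpl45 encodes a protein beside the exit tunnel that holds the ribosome to the inner mitochondrial membrane. It read 5.31, 5.38 and 5.40 in labelled knockouts at 4 °C and 6.11, 5.98 and 5.83 in controls at 4 °C (-0.61 ± 0.11 SE, 1.53-fold lower, adjusted p = 0.00388). The groups did not overlap, and the call held without each of the 12 arrays in turn (adjusted p up to 0.0234). At room temperature it read 5.79, 5.79 and 5.69 in labelled knockouts and 6.19, 5.94 and 6.10 in controls, which was not called (-0.32 ± 0.11, adjusted p = 0.191). Mrpl47, whose bacterial counterpart also lies near the tunnel exit, read 5.54, 5.47 and 5.42 in labelled knockouts and 6.21, 6.07 and 6.01 in controls at 4 °C (-0.62 ± 0.13, adjusted p = 0.0142). Its second, dimmer probe set differed by -0.58 ± 0.21 in the same comparison and was not called (adjusted p = 0.143). The Mrpl47 call was lost without control replicate 1 at 4 °C (adjusted p = 0.0666) and without labelled knockout replicate 2 (0.0528) or 3 (0.0592) at 4 °C, and with the array of conflicting labels grouped at 4 °C (0.0961). Mrpl3, a core protein close to the catalytic centre, read 7.15, 7.19 and 6.98 in labelled knockouts and 7.55, 7.57 and 7.40 in controls (-0.40 ± 0.11, adjusted p = 0.0495). This call stood at the threshold and was lost without any array other than control replicate 1 at room temperature, with adjusted p from 0.0442 to 0.181 over the 12 arrays. At room temperature Mrpl3 read 7.07, 7.01 and 7.09 in labelled knockouts and 7.47, 7.19 and 7.26 in controls, without overlap and not called.

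Mrpl52, a large subunit protein with no bacterial counterpart, moved the other way, at 7.59, 7.81 and 7.93 in labelled knockouts and 7.09, 7.26 and 7.34 in controls at 4 °C (0.54 ± 0.12, 1.46-fold higher, adjusted p = 0.0163). At room temperature the groups overlapped, at 7.64, 7.41 and 7.56 in labelled knockouts and 7.59, 7.64 and 7.49 in controls. The Mrpl52 call was lost without control replicate 1 at 4 °C (adjusted p = 0.0776) and without labelled knockout replicate 2 (0.0648) or 3 (0.0754) at 4 °C. Mrps28 of the small subunit read 6.45, 6.38 and 6.74 in labelled knockouts and 6.11, 5.95 and 5.98 in controls at 4 °C (0.51 ± 0.12, adjusted p = 0.0217). At room temperature it read 6.23, 6.24 and 6.27 in labelled knockouts and 6.01, 6.09 and 5.84 in controls, without overlap and not called. The Mrps28 call was lost without labelled knockout replicate 3 (adjusted p = 0.0902) or control replicate 2 (0.0731) or 3 (0.0561) at 4 °C. Mrpl32, whose protein must be cut by a protease of the inner membrane before it is assembled (shown in mouse and yeast), had the largest difference and was not called, at 6.11, 5.93 and 6.72 in labelled knockouts and 4.91, 5.71 and 5.62 in controls (0.84 ± 0.23, adjusted p = 0.0519). In the same comparison 18 of 19 skeletal muscle markers lay below 0 with a median of -0.98, and all 8 endothelial markers did with a median of -0.21; 0 of either list were called, and the part of endothelial cells in the result was not tested. Of the 13 brown adipocyte markers 10 lay below 0 and 2 were called lower, and their part was not tested. With the muscle marker mean of each array as a covariate, 4 of the 71 genes were called, 2 higher and 2 lower.

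**Figure D3:**
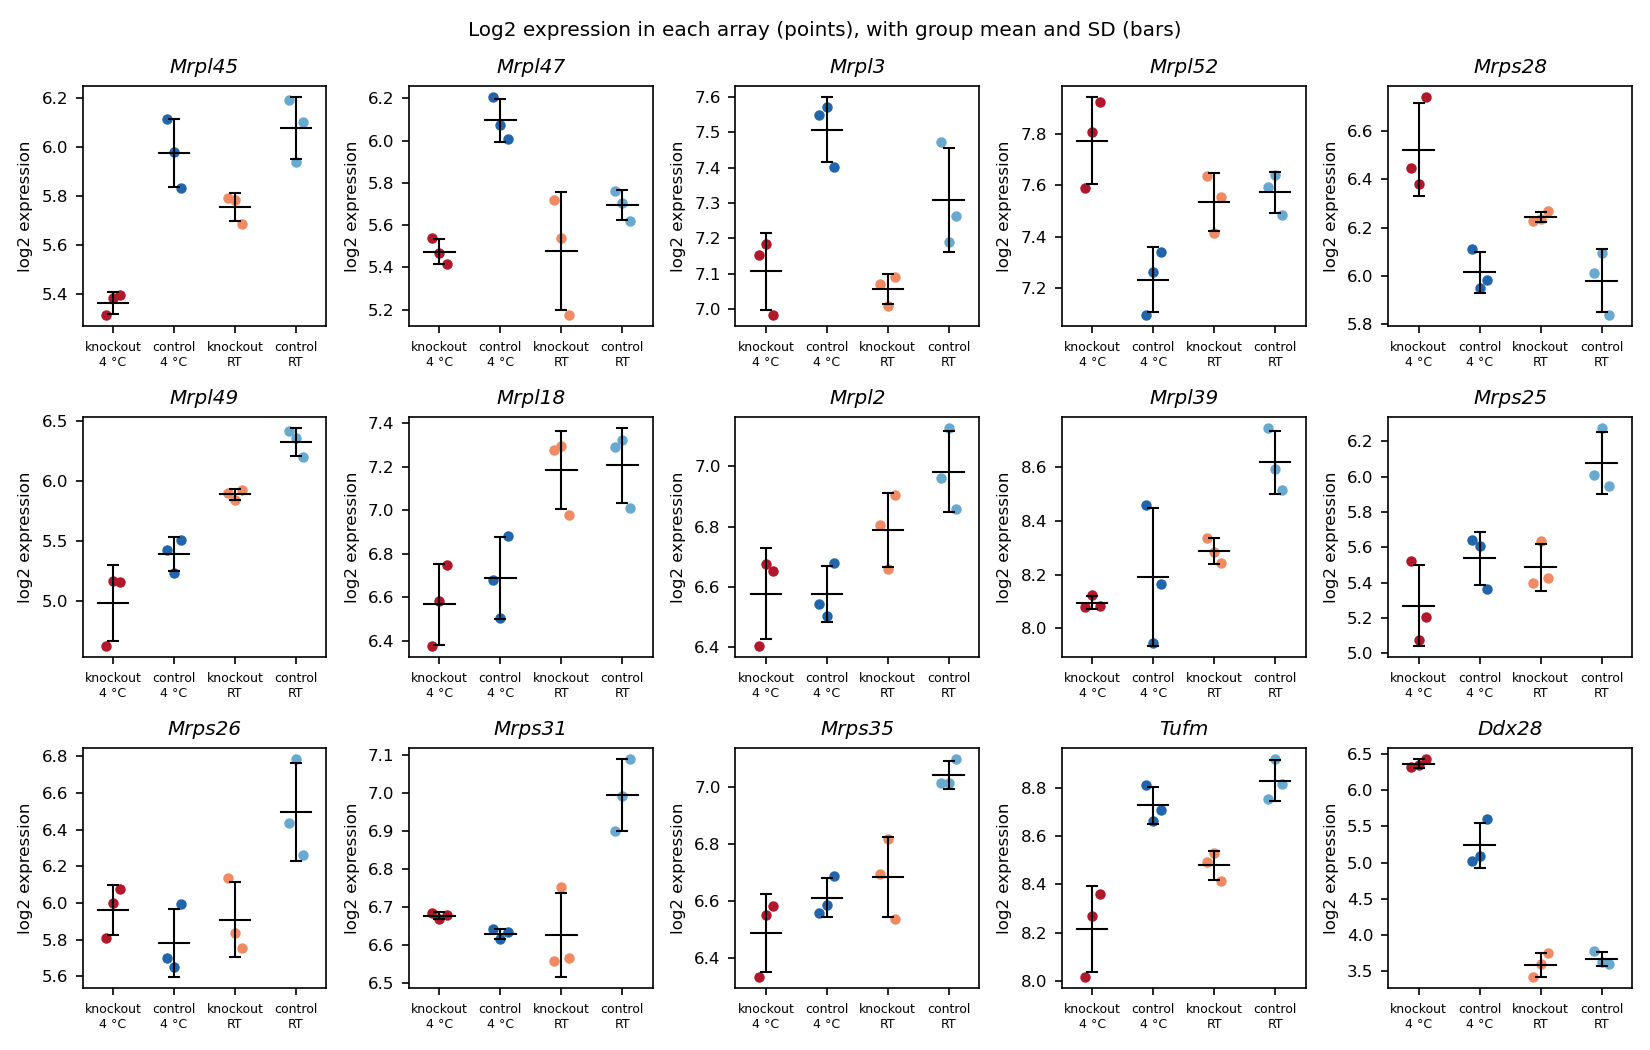
Log2 expression (vertical axis) of 13 mitochondrial ribosomal protein genes, Tufm and Ddx28 on each array, with labelled knockouts at 4 °C, controls at 4 °C, labelled knockouts at room temperature and controls at room temperature along the horizontal axis. Points are arrays, long bars are means and whiskers are SDs of 3 arrays; Mrpl45 reads 5.31 to 5.40 in labelled knockouts at 4 °C, below its other 3 groups, and Mrpl49 is lower at 4 °C in both genotypes.

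At room temperature, labelled knockouts differed significantly from controls in 0 of the 71 genes (limma), where 1.72% of all probe sets and 3.15% of those above the table median were called. At an unadjusted p under 0.05 there were 19 of the 71 genes (26.8%), against 13.0% of all probe sets. The same shares were 26.8% against 16.9% for labelled knockouts at 4 °C. For the cold they were 31.0% against 23.1% in controls and 14.1% against 20.7% in labelled knockouts. The share among probe sets above the table median, where nearly all of these genes lie, was not counted at this threshold. Differences lay below 0 for 52 of the 71 genes (73.2%), against 51.2% of all probe sets. The median was -0.14 for the Mrpl genes, -0.16 for the Mrps genes and -0.01 for all probe sets. All 19 skeletal muscle markers also lay below 0, with a median of -2.28, as did 7 of 8 endothelial markers with a median of -0.34, and 0 of either list were called. With the muscle marker mean as a covariate 1 gene, Mrps25, was called.

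The smallest p-values belonged to small subunit proteins without a bacterial counterpart. Mrps25 read 5.40, 5.64 and 5.42 in labelled knockouts and 6.01, 6.28 and 5.95 in controls at room temperature (-0.59 ± 0.14, adjusted p = 0.0595). Its adjusted p was 0.0471 without labelled knockout replicate 1 at 4 °C and 0.0489 when only probe sets above the table median were tested. Mrps31 read 6.56, 6.75 and 6.57 in labelled knockouts and 6.90, 6.99 and 7.09 in controls (-0.37 ± 0.10, adjusted p = 0.0845). Neither gene's groups overlapped at room temperature. In the other direction, Mrps14 read 3.60, 3.26 and 2.38 in labelled knockouts and 2.17, 2.31 and 2.57 in controls (0.73 ± 0.24, adjusted p = 0.182). Replicate 3 of the labelled knockouts lay among the controls, and without it the adjusted p for Mrps14 was 0.00458. Mrpl21 read 5.18, 5.16 and 5.16 in labelled knockouts and 4.70, 5.09 and 4.71 in controls (0.33 ± 0.12, adjusted p = 0.226), with the control arrays spread more widely than the difference.

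In labelled knockouts, 3 of the 71 genes fell at 4 °C and 0 rose (limma, adjusted p under 0.05), all of the large subunit: Mrpl49, Mrpl18 and Mrpl45. The share of 4.23% lay below that of all probe sets, 9.03%, of which 4.32% were higher and 4.70% lower, and below the 16.3% called above the table median. Mrpl45 (-0.39 ± 0.11, adjusted p = 0.0388) did not overlap between the temperatures, and its call was lost without any of the 6 labelled knockout arrays or control replicate 3 at room temperature (adjusted p up to 0.124). Differences lay below 0 for 46 of the 71 genes, against 52.6% of all probe sets, with a median of -0.08 for the Mrpl genes, -0.06 for the Mrps genes and -0.01 for all probe sets. Among the differences above 0, Mrps28 (0.28 ± 0.12, adjusted p = 0.188) and Mrpl32 (0.53 ± 0.23, adjusted p = 0.208) had the smallest p-values, and neither was called. Skeletal muscle markers lay above 0 for 16 of 19 genes here, with a median of 0.62 and 0 called, opposite in sign to the controls. Of 13 brown adipocyte markers 2 rose and 2 fell, of 8 endothelial markers 1 rose and 3 fell, and of 8 macrophage markers 2 rose, and the part of these cells was not tested.

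In controls, 8 of the 71 genes fell at 4 °C and 0 rose (limma, adjusted p under 0.05). They were Mrpl49, Mrpl18, Mrpl2 and Mrpl39 of the large subunit and Mrps25, Mrps26, Mrps31 and Mrps35 of the small subunit. The share of 11.3% compares with 11.1% of all probe sets called, 4.85% higher and 6.23% lower, and with 20.0% of those above the table median. Differences lay below 0 for 49 of the 71 genes, against 52.1% of all probe sets, with a median of -0.14 for the Mrpl genes, -0.15 for the Mrps genes and -0.01 for all probe sets. Of the 26 genes without a bacterial counterpart, Mrps36 among them, 6 fell, and of the 44 genes with one 2 fell (Mrpl18 and Mrpl2). Mrpl55 was not classified. The medians were -0.11 and -0.15, and the difference in counts was not tested. In labelled knockouts 2 of the 26 and 1 of the 44 fell in the cold. Between labelled knockouts and controls, 2 of the 26 and 3 of the 44 were called at 4 °C, and 0 of either at room temperature. All 8 cold calls in controls were lost when replicate 3 of the room temperature controls, the array with conflicting labels, was grouped with the 4 °C controls.

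Mrpl49 of the large subunit fell most of the 71 genes in the cold in both genotypes. In labelled knockouts it read 4.62, 5.17 and 5.16 at 4 °C and 5.90, 5.84 and 5.93 at room temperature (-0.90 ± 0.15, 1.87-fold lower, adjusted p = 0.00217). In controls it read 5.43, 5.24 and 5.51 at 4 °C and 6.42, 6.36 and 6.20 at room temperature (-0.94 ± 0.15, 1.91-fold lower, adjusted p = 0.00159). Both calls held without each of the 12 arrays in turn, with adjusted p up to 0.0101 in labelled knockouts and 0.00935 in controls. With the array of conflicting labels grouped at 4 °C the difference in controls was -0.80 (adjusted p = 0.154). Averaged over both temperatures, Mrpl49 was also lower in labelled knockouts than in controls (-0.42 ± 0.10, adjusted p = 0.0261). Mrpl18, whose bacterial counterpart binds the smallest ribosomal RNA, read 6.37, 6.58 and 6.75 in labelled knockouts at 4 °C and 7.28, 7.30 and 6.98 in labelled knockouts at room temperature (-0.62 ± 0.15, adjusted p = 0.0187). In controls it read 6.68, 6.50 and 6.88 at 4 °C and 7.29, 7.32 and 7.01 at room temperature (-0.52 ± 0.15, adjusted p = 0.0377). The groups of Mrpl18 did not overlap in either genotype, but the call in labelled knockouts was lost without their replicate 1 or 2 at either temperature (adjusted p up to 0.0861). The call in controls was lost without control replicate 1 or 2 at either temperature or labelled knockout replicate 2 at 4 °C (adjusted p up to 0.148).

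The 4 small subunit genes that fell in controls share a pattern in which the controls at room temperature stood above the other 3 groups. Mrpl49 and Mrpl39 of the large subunit, also called in controls, showed the same pattern, so it was not particular to the small subunit. Mrps26 read 5.81, 6.00 and 6.07 in labelled knockouts at 4 °C and 6.14, 5.84 and 5.75 in labelled knockouts at room temperature, with overlapping groups. In controls it read 5.70, 5.65 and 6.00 at 4 °C and 6.44, 6.79 and 6.26 at room temperature (-0.71 ± 0.16, adjusted p = 0.0113), and of the 12 arrays only control replicate 2 at 4 °C cost the call when left out (0.0516). Mrps25 read 5.64, 5.61 and 5.36 in controls at 4 °C, against 6.01, 6.28 and 5.95 at room temperature as above (-0.54 ± 0.14, adjusted p = 0.0283). Mrps31 read 6.68, 6.67 and 6.68 in labelled knockouts and 6.64, 6.61 and 6.63 in controls at 4 °C, and its cold difference in controls was -0.36 ± 0.10 (adjusted p = 0.0290). Mrps35 read 6.56, 6.59 and 6.69 in controls at 4 °C and 7.01, 7.01 and 7.10 in controls at room temperature (-0.43 ± 0.11, adjusted p = 0.0233), and its labelled knockouts at room temperature read 6.70, 6.82 and 6.54. The Mrps25 call was lost without control replicate 1 or 2 at room temperature or 2 or 3 at 4 °C (adjusted p up to 0.111). The Mrps31 call was lost without any control array other than replicate 1 at room temperature (up to 0.09995), and the Mrps35 call without any other than replicate 3 at 4 °C (up to 0.0801). Because the same 3 control arrays at room temperature enter the cold comparison in controls and the knockout comparison at room temperature, low values in both are not independent of each other.

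Mrpl2, a core protein near the catalytic centre, read 6.54, 6.50 and 6.68 in controls at 4 °C and 6.96, 7.13 and 6.86 in controls at room temperature (-0.41 ± 0.12, adjusted p = 0.0434). Mrpl39 read 8.46, 7.95 and 8.17 in controls at 4 °C and 8.75, 8.59 and 8.51 in controls at room temperature (-0.43 ± 0.13, adjusted p = 0.0467). The Mrpl2 call was lost without control replicate 1 or 2 at either temperature, labelled knockout replicate 1 at room temperature, or labelled knockout replicate 2 or 3 at 4 °C (adjusted p up to 0.155). The Mrpl39 call was lost without any array other than control replicate 1 at 4 °C (up to 0.184). In the opposite direction no gene was called: Mrps18b read 7.22, 7.29 and 7.40 in controls at 4 °C and 6.86, 7.01 and 6.66 in controls at room temperature (0.46 ± 0.15, adjusted p = 0.0708), and Mrpl47 differed by 0.40 ± 0.13 (adjusted p = 0.0756). Skeletal muscle markers lay below 0 for 17 of 19 genes in this comparison, with a median of -0.79 and 0 called. Of 13 brown adipocyte markers 3 rose and 2 fell, of 8 endothelial markers 2 rose and 2 fell, and of 8 macrophage markers 2 rose, and the part of these cells in the result was not tested. With the muscle marker mean as a covariate 5 genes were called, all lower: Mrpl49, Mrps25, Mrps26, Mrps31 and Mrps35.

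**Figure D4:**
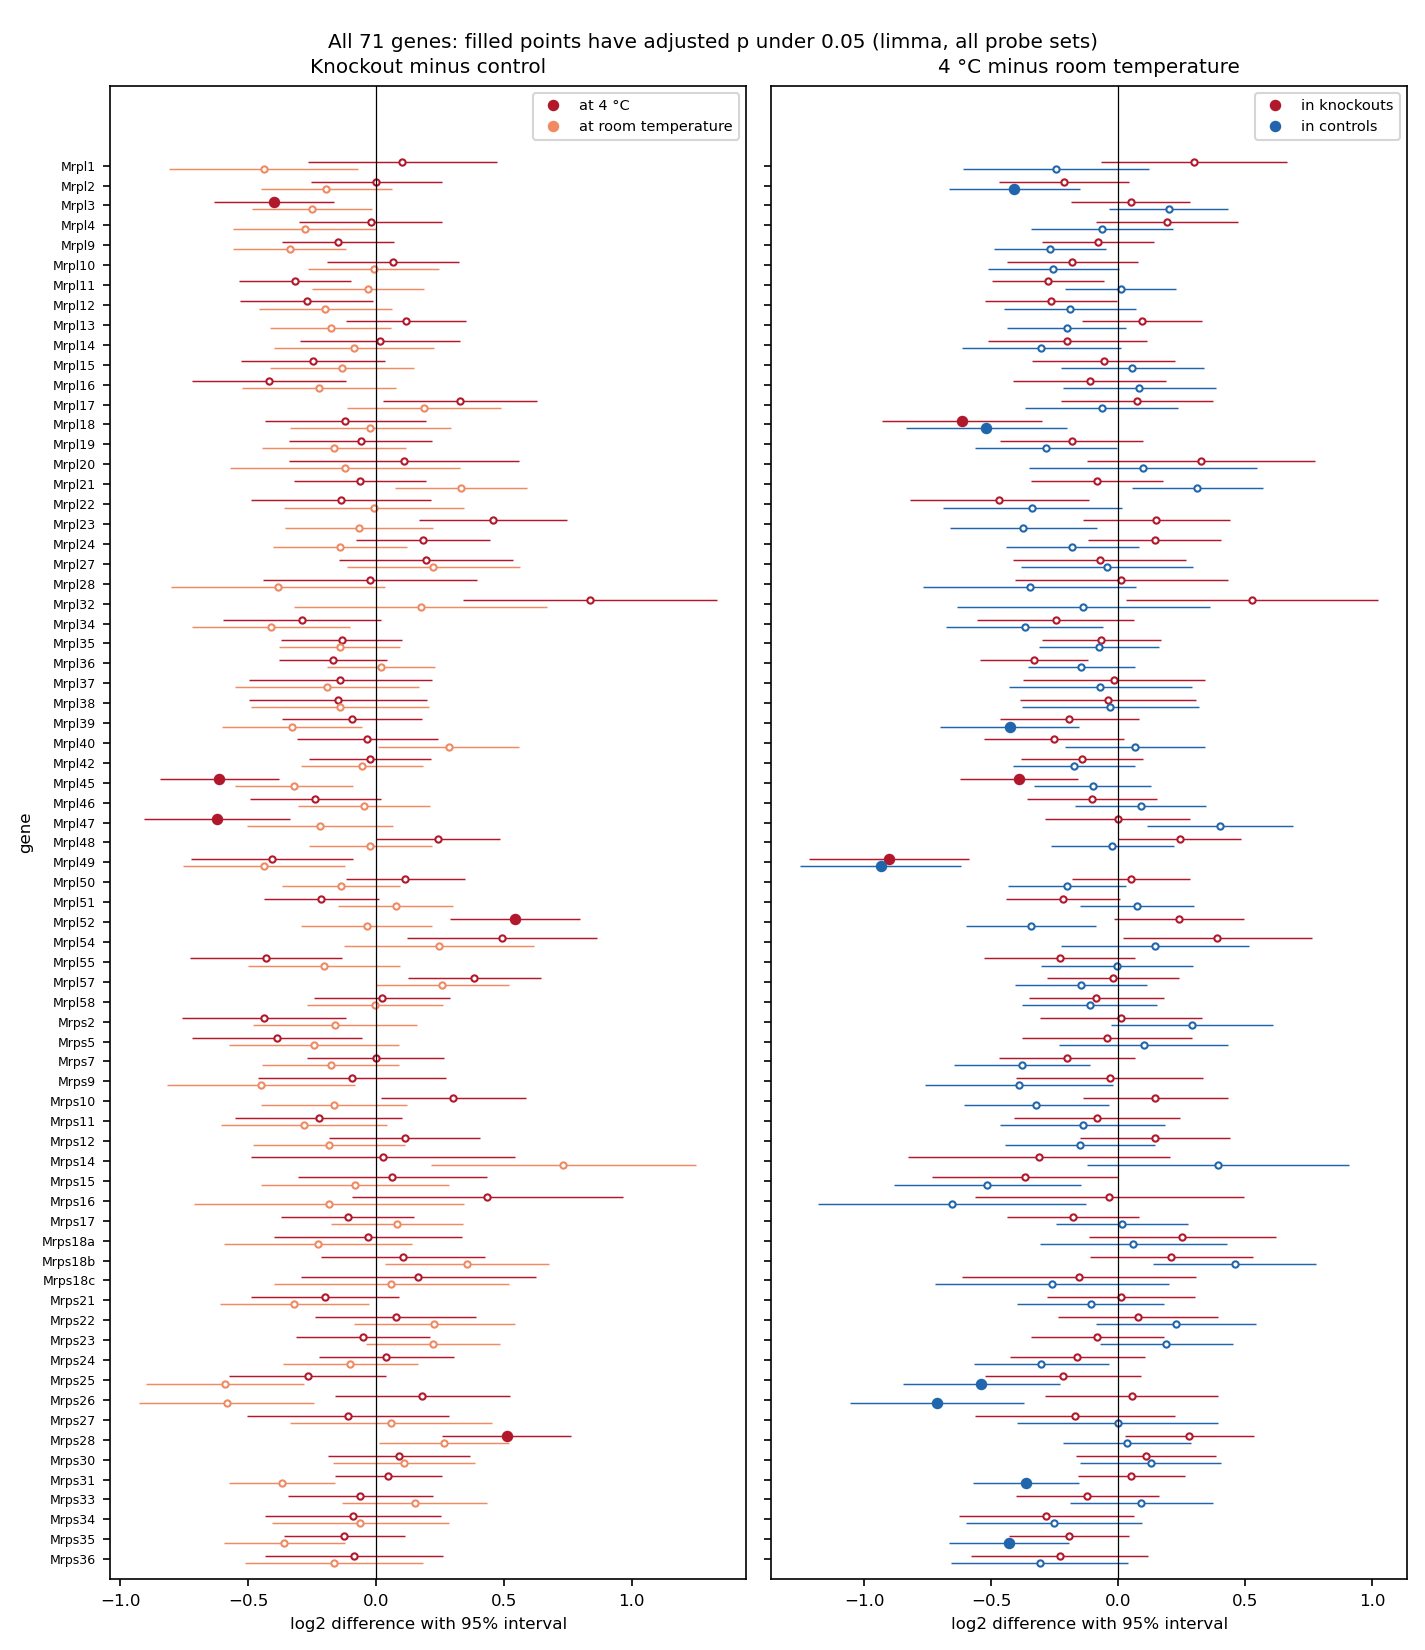
Log2 difference of each of the 71 genes with its 95% interval (horizontal axis), knockout minus control on the left (4 °C and room temperature) and 4 °C minus room temperature on the right (labelled knockouts and controls). Filled points have an adjusted p under 0.05: 5 at 4 °C and 0 at room temperature on the left, 3 in labelled knockouts and 8 in controls on the right.

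The cold difference of labelled knockouts minus that of controls was called for 0 of the 71 genes, where 0.306% of all probe sets were called (limma). At an unadjusted p under 0.05 there were 7 genes (9.86%), against 9.77% of all probe sets. The smallest p-values belonged to Mrpl52 (0.58 ± 0.17, adjusted p = 0.216) and Mrps26 (0.77 ± 0.22, adjusted p = 0.226) above 0 and to Mrpl21 (-0.40 ± 0.17, adjusted p = 0.468) and Mrpl47 (-0.40 ± 0.19, adjusted p = 0.517) below 0. Their 95% intervals ran from 0.22 to 0.94 for Mrpl52 and 0.28 to 1.25 for Mrps26, so these data do not show that the cold response of these genes is alike in the genotypes.

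Averaged over both temperatures, labelled knockouts differed from controls in 7 of the 71 genes. This share of 9.86% compares with 6.96% of all probe sets and 12.7% of those above the table median. Higher were Mrps28 (0.39 ± 0.08) and Mrpl57 (0.32 ± 0.08), and lower were Mrpl45 (-0.47 ± 0.08), Mrps25 (-0.43 ± 0.10), Mrpl49, Mrpl47 (-0.42 ± 0.09) and Mrpl3 (-0.33 ± 0.08). Averaged over both genotypes, 12 genes differed between 4 °C and room temperature. This share of 16.9% compares with 17.6% of all probe sets and 31.6% of those above the table median. Mrps18b was higher (0.33 ± 0.10, adjusted p = 0.0446), and its second probe set read the same direction (0.31 ± 0.08, adjusted p = 0.0180). The 11 lower genes included Mrpl49 (-0.92 ± 0.10), Mrpl18 (-0.57 ± 0.10), Mrps15 (-0.44 ± 0.12) and Mrpl22 (-0.40 ± 0.12), where Mrps15 and Mrpl22 were not called in either genotype alone.

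Some symbols hide a different place. Mrps18a and Mrps30 sit in the large subunit of the mammalian mitochondrial ribosome, and Mrps36 is a subunit of the oxoglutarate dehydrogenase complex. Their cold differences in controls were 0.06 ± 0.17, 0.13 ± 0.13 and -0.31 ± 0.16, and none of the 3 was called in any of the comparisons above. With Mrps18a and Mrps30 counted as large and Mrps36 left out, there were 45 large and 25 small subunit genes. Their medians were -0.034 and -0.0015 for labelled knockouts against controls at 4 °C, and -0.135 and -0.160 at room temperature. For the cold they were -0.074 and -0.084 in labelled knockouts, and -0.113 and -0.152 in controls. For the difference of cold differences they were 0.053 and 0.120. No test was made between these medians.

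Of 9 genes with 2 probe sets, 3 had probe sets of opposite sign whose gap exceeded 2 standard errors of that gap. For Mrps5 at 4 °C the brighter probe set differed by -0.39 ± 0.15 and the dimmer one by 0.34 ± 0.15 between labelled knockouts and controls, and neither was called. For Mrps17 the brighter one differed by -0.11 ± 0.12 and the dimmer one by 0.54 ± 0.17 (adjusted p = 0.744 and 0.0942). Averaged over both temperatures the dimmer Mrps17 probe set was called higher (0.50 ± 0.12, adjusted p = 0.0262), where the brighter one differed by -0.01 ± 0.08. For Mrpl10, among the brightest members, the cold difference in labelled knockouts was -0.18 ± 0.12 on the brighter and 0.31 ± 0.14 on the dimmer probe set. The dimmer probe sets of Mrps5, Mrpl10 and Mrps17 had means of 1.93, 1.98 and 3.48, against 6.74, 8.13 and 6.14 for the brighter ones. Those of Mrps5 and Mrpl10 lay below the table median of 2.05. Results for these 3 genes are uncertain. Mrpl39, Mrpl24 and Mrpl10 read brightest, with means of 8.30, 8.15 and 8.13 over the 12 arrays, and Mrps18c (3.05), Mrps14 (2.73) and Mrpl27 (2.02) dimmest. Mrpl27 stayed between 1.69 and 2.26 on all arrays, around the table median.

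Among the 11 genes with a promoter of the 13 called in at least 1 of the 4 comparisons of groups, 4 held the ETS motif, namely Mrpl3, Mrpl18, Mrpl52 and Mrps26. Of all 62 genes with a promoter, 23 (37.1%) held it, a share close to that of the called genes. Mrpl49 alone of the 11 held the YY1 motif, as printed above, against 12 of the 62 (19.4%). In labelled knockouts, the 23 genes with the ETS motif had a median cold difference of -0.04 (1 lower) and the 39 without it -0.11 (2 lower). In controls the medians were -0.06 (2 lower) and -0.18 (5 lower). Of all probe sets, 4.70% were called lower in the cold in labelled knockouts and 6.23% in controls. For labelled knockouts against controls at 4 °C the medians were 0.02 with the motif (1 higher, 1 lower) and -0.09 without it (2 lower). At room temperature they were -0.003 and -0.16, with 0 called. These splits were given no test.

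Other proteins of mitochondrial translation are needed beside the ribosomal ones, and 15 translation factors were measured. At 4 °C, 4 of them were lower and 0 higher in labelled knockouts than in controls, with a median of -0.26. That is 26.7% called, against 5.80% of all probe sets and 10.6% of those above the table median. Tufm, the elongation factor that brings tRNAs to the ribosome, read 8.01, 8.27 and 8.36 in labelled knockouts and 8.81, 8.66 and 8.71 in controls (-0.51 ± 0.11, adjusted p = 0.0155). Taco1, an activator of the translation of a cytochrome c oxidase subunit, read 5.61, 5.75 and 5.56 in labelled knockouts and 6.82, 6.48 and 6.26 in controls (-0.88 ± 0.19, adjusted p = 0.0163). On the dimmest probe set of each gene neither was called, with -0.24 for Taco1 (adjusted p = 0.629) and -0.38 for Tufm (adjusted p = 0.514). Both calls were also lost without control replicate 1 or labelled knockout replicate 1 at 4 °C, and that of Taco1 without labelled knockout replicate 3 (adjusted p up to 0.0693 for Tufm and 0.0778 for Taco1). Lrpprc, which stabilises mitochondrial mRNAs, was lower by -0.64 ± 0.14 (adjusted p = 0.0144), and Gfm1, which moves the ribosome along, by -0.51 ± 0.14 (adjusted p = 0.0483, lost without 11 of the 12 arrays). Lrpprc was no longer called without labelled knockout replicate 3 (adjusted p = 0.0625) or control replicate 1 (0.0689) at 4 °C. At room temperature all 15 lay below 0 in labelled knockouts, with a median of -0.35, and 0 were called. Of all probe sets, 51.2% lay below 0 there and 1.72% were called. In the cold, 1 factor was called in labelled knockouts, the initiation factor Mtif2, which fell (-0.58 ± 0.16, adjusted p = 0.0408). This share of 6.67% compares with 9.03% of all probe sets. In controls 5 factors fell, or 33.3%, against 11.1% of all probe sets called and 20.0% of those above the table median. Among the 5 were Mtif2 (-0.70 ± 0.16, adjusted p = 0.0146) and Mtfmt, which formylates the initiator tRNA (-1.30 ± 0.16, adjusted p = 0.000456). With the array of conflicting labels grouped at 4 °C all these calls were lost, with -0.41 for Mtif2 in controls (adjusted p = 0.475) and -0.82 for Mtfmt (adjusted p = 0.314). Leaving out 1 array cost the Mtif2 call in 6 of 12 fits in labelled knockouts (adjusted p up to 0.138) and in 3 of 12 in controls (up to 0.0674).

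Of 23 measured assembly and rRNA modification factors, 2 were higher and 0 lower in labelled knockouts at 4 °C. This share of 8.70% compares with 5.80% of all probe sets and 10.6% of those above the table median. Ddx28, a helicase needed to assemble the large subunit, read 6.32, 6.35 and 6.43 in labelled knockouts and 5.03, 5.09 and 5.59 in controls at 4 °C (1.13 ± 0.15, adjusted p = 0.000430). At room temperature it read 3.42, 3.61 and 3.75 in labelled knockouts and 3.78, 3.63 and 3.60 in controls. The cold differences of Ddx28 were 2.77 ± 0.15 in labelled knockouts and 1.57 ± 0.15 in controls (limma, adjusted p = 8.56e-07 and 9.15e-05). Of the 43 Mrpl genes, 3 fell in labelled knockouts (6.98%) and 4 in controls (9.30%). The shares of all probe sets called were 9.03% and 11.1%. Lonp1, a protease of the matrix, was higher in labelled knockouts at 4 °C (0.73 ± 0.13, adjusted p = 0.00600) and at room temperature (0.66 ± 0.13, adjusted p = 0.0264). The Lonp1 call at room temperature was lost without labelled knockout replicate 2 or 3 or any control there (adjusted p up to 0.101), and with the muscle marker mean as a covariate (0.199), with only the compared arrays fitted (0.05004), over all probe sets (0.0542) and with the array of conflicting labels regrouped (0.0652). Mrm2, a methyltransferase of the large ribosomal RNA, fell in the cold in labelled knockouts (-1.15 ± 0.23, adjusted p = 0.00690) and in controls (-1.17 ± 0.23, adjusted p = 0.00534). With that array regrouped the Mrm2 calls were lost, at -1.15 in labelled knockouts (adjusted p = 0.103) and -0.68 in controls (0.447), as was the Ddx28 cold call in controls (1.12, adjusted p = 0.207).

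Among 15 genes of mitochondrial transcription and its regulators, 4 were lower and 0 higher in labelled knockouts at 4 °C. That is 26.7% called, against 5.80% of all probe sets and 10.6% of those above the table median. Ppargc1a, the coactivator induced by cold, read 9.61, 9.99 and 9.88 in labelled knockouts and 11.49, 11.31 and 10.94 in controls at 4 °C (-1.42 ± 0.25, adjusted p = 0.00473). It rose in the cold by 1.85 ± 0.25 in labelled knockouts and 3.41 ± 0.25 in controls (limma, adjusted p = 0.000820 and 2.09e-05). Of the 15 genes, 3 rose and 1 fell in the cold in labelled knockouts, and 2 rose and 1 fell in controls. These shares of 26.7% and 20.0% compare with 9.03% and 11.1% of all probe sets called. Above the table median the shares called were 16.3% and 20.0%. Esrrg fell in both genotypes (-1.53 ± 0.15 and -0.999 ± 0.15, adjusted p = 0.000115 and 0.00138). Pprc1 rose in both (0.68 ± 0.12 and 0.46 ± 0.12, adjusted p = 0.00463 and 0.0304). Myc rose in labelled knockouts (1.36 ± 0.30, adjusted p = 0.0123). In the same arrays 0 of the 71 ribosomal genes rose, and a link between these lists was not tested. With the array of conflicting labels grouped at 4 °C all 3 Ppargc1a calls were lost: the difference at 4 °C was -0.65 (adjusted p = 0.709), and the cold differences were 1.85 in labelled knockouts (adjusted p = 0.159) and 2.81 in controls (0.131). The cold calls in controls of Esrrg (-0.54, adjusted p = 0.447) and Pprc1 (0.36, adjusted p = 0.329) were lost there too. Leaving out 1 array cost the Pprc1 call in controls in 5 of 12 fits and the Myc call in 2 of 12. Polrmt, the RNA polymerase of mitochondria, read 5.18, 5.16 and 5.38 in labelled knockouts and 6.39, 5.89 and 6.21 in controls at 4 °C (-0.92 ± 0.19, adjusted p = 0.0112). Esrrg (-0.82 ± 0.15, adjusted p = 0.00571) and Ppargc1b (-0.56 ± 0.12, adjusted p = 0.0168) were the other genes lower in labelled knockouts at 4 °C. Polrmt was no longer called without labelled knockout replicate 2 (adjusted p = 0.0508) or control replicate 1 (0.0574) at 4 °C, and the Ppargc1b call without control replicate 2 or labelled knockout replicate 2 or 3 there (up to 0.0663).

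Subunits of oxidative phosphorylation and proteins of the cytosolic ribosome are set beside the mitochondrial ones for scale. For labelled knockouts against controls at 4 °C, 1 of 78 oxidative phosphorylation genes was higher and 4 lower (median -0.11), and at room temperature 0 were higher and 2 lower (-0.18). These shares of 6.41% and 2.56% compare with 5.80% and 1.72% of all probe sets. They lay below the 10.6% and 3.15% called among probe sets above the table median. Of 63 cytosolic ribosomal protein genes, 1 was higher and 0 lower at 4 °C (1.59%, median 0.22), and 0 were called at room temperature (0.12). In the cold, 0 of the 78 were called in labelled knockouts (median -0.05) and 3 fell in controls (3.85%, median -0.09). Of the 63 cytosolic genes 3 rose in labelled knockouts (4.76%, median 0.14) and 0 were called in controls (0.04). All probe sets had 9.03% called in labelled knockouts and 11.1% in controls, and those above the table median 16.3% and 20.0%. The medians of the mitochondrial ribosomal genes thus lay on the side of the oxidative phosphorylation genes in all 4 comparisons, and those of the cytosolic ones on the other, with no test of the lists. The comparisons share arrays and are not independent. The median of all probe sets also lay below 0 in each, at -0.01, and the Mrps median at 4 °C was close to it (-0.02).

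**Figure D5:**
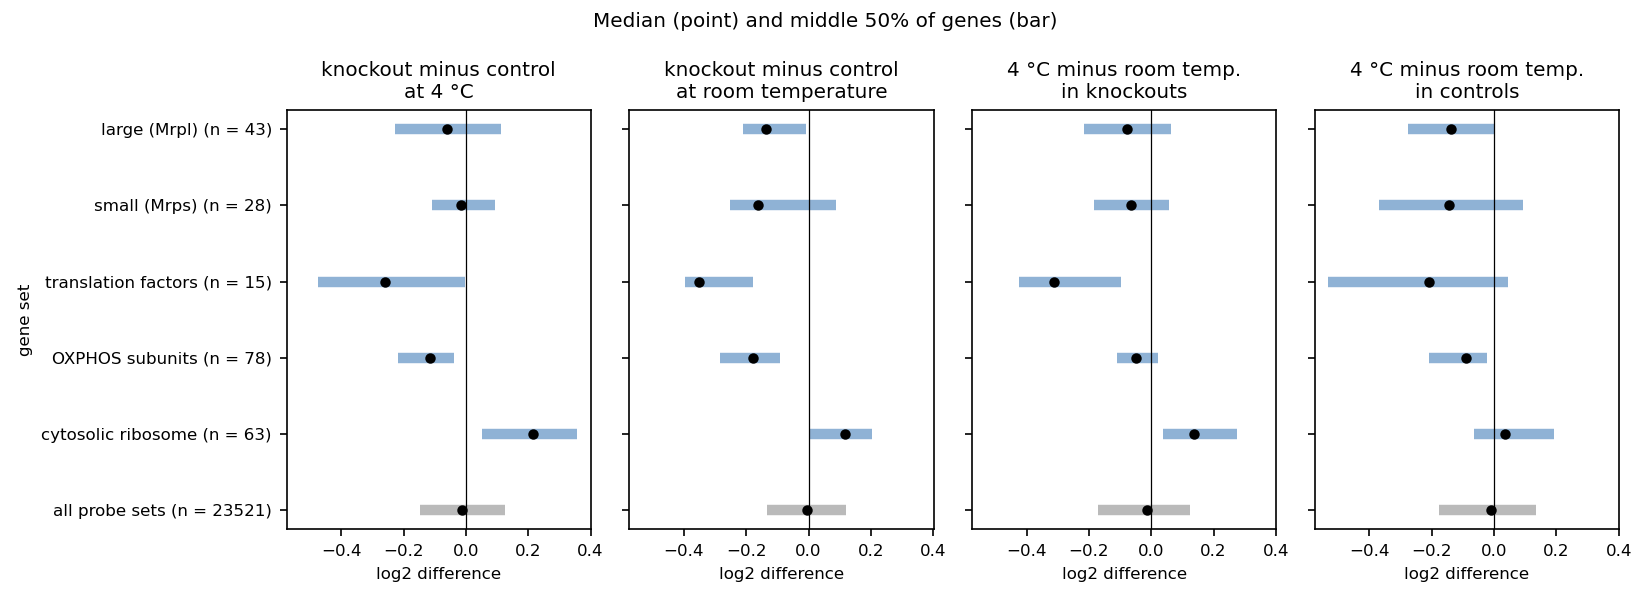
Median log2 difference (points) and middle 50% of genes (bars) for Mrpl genes, Mrps genes, mitochondrial translation factors, oxidative phosphorylation (OXPHOS) subunits, cytosolic ribosomal proteins and all probe sets, in 4 comparisons. Mrpl and Mrps medians lie between -0.16 and -0.02, and those of the cytosolic ribosomal genes between 0.04 and 0.22.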

How the data were processed

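Brown adipose tissue RNA was hybridised to whole-transcript arrays after Trizol and RNeasy extraction, per the labels' protocols. The labels name tissue, although the design text mentions isolated brown adipocytes. The deposited log2 values were made by the authors with RMA, per the submitters' processing notes; no source used here gives a version. Of 41345 probe sets, 23521 carried 1 gene symbol, 1814 several and 16010 none. In R 4.3.3, lmFit and eBayes of limma 3.58.1 fitted a mean for each group to the 23521 probe sets on all 12 arrays, and p-values were adjusted by Benjamini-Hochberg over all of them, with 0.05 as the threshold. The fit left 8 residual degrees of freedom, and the median SE of a difference between groups was 0.14. Errors after ± are SEs unless marked SD. Nothing says whether arrays of a group came from separate litters, and the number of arrays limits the precision. Named genes were those called, those with the smallest p-values in each direction of each comparison, the 3 brightest and 3 dimmest, those placed otherwise than their symbol says and those whose probe sets disagree. The genes, lists, motifs and tests were chosen with earlier results of these data known, so no test was made of a list. Alternatives left out each array, regrouped the array of conflicting labels, added the replicate number or the muscle marker mean to the fit, and changed the arrays fitted, probe sets, centring and variance prior. The fit was tested on simulated data.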

Additional observations from a re-analysis of the deposited data

Results flagged for a closer look

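For Ddx28, the helicase of large subunit assembly, the cold difference was larger in labelled knockouts (2.77 ± 0.15) than in controls (1.57 ± 0.15), a difference between the genotypes of 1.20 ± 0.21 (limma, adjusted p = 0.0344), and all 6 arrays at 4 °C read above all 6 at room temperature. The test of that difference was lost without 10 of the 12 arrays, with adjusted p from 0.00528 to 0.0990. Its adjusted p was 0.475 with the array of conflicting labels grouped at 4 °C, 0.0670 with the muscle marker mean as a covariate and 0.113 over all probe sets of the table.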

How the results depend on the processing

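Counts of genes called by limma moved by more than 1.5 times as follows. Fitting only the arrays of the groups compared gave 2 genes for labelled knockouts against controls at 4 °C (main 5) and 3 for the cold in controls (main 8). Grouping the array of conflicting labels with the 4 °C controls gave 0 for the cold in controls, 3 for the genotypes averaged over temperature (main 7) and 2 for the cold averaged over genotypes (main 12). The muscle marker mean as a covariate gave 1 for labelled knockouts against controls at room temperature (main 0), 5 for the cold in controls and 3 for the averaged genotypes, and testing only probe sets above the table median also gave 1 at room temperature. Testing all probe sets of the table gave 4 for the cold in controls and 7 for the averaged cold. Subtracting array medians, the replicate block and the trended variance prior each gave 3 higher and 2 lower at 4 °C, against 2 and 3, and regrouping the array of conflicting labels gave 3 and 1. The cause of these shifts was not tested. The alternatives for both averages were chosen after seeing the data. Leaving out 1 array gave 1 to 5 genes for labelled knockouts at 4 °C, 0 to 1 at room temperature, 1 to 3 for the cold in labelled knockouts, 1 to 8 for the cold in controls, 0 for the difference of cold differences, 3 to 9 for the averaged genotypes and 5 to 12 for the averaged cold. The median of Mrpl minus that of Mrps genes was -0.0313 at room temperature with the muscle covariate (main 0.03), and with the dimmest probe set of each gene -0.0621 for the cold in labelled knockouts (main -0.01) and 0.0709 in controls (main 0.01). Without 1 array it ran from -0.0909 to -0.0290 for labelled knockouts at 4 °C, from -0.00327 to 0.0431 at room temperature, from -0.0592 to 0.0506 for the cold in labelled knockouts, from -0.0715 to 0.0898 in controls and from -0.0933 to 0.0429 for the difference of cold differences. The groups share replicate numbers, but arrays of the same number did not deviate together (18 correlations, -0.18 to 0.16, 2 over 0.1), so the numbers were not taken as pairs. With the replicate block 5 genes were called for labelled knockouts at 4 °C, 0 at room temperature, 2 for the cold in labelled knockouts and 7 in controls (1 higher, Mrpl47, adjusted p = 0.0467, and 6 lower), 0 for the difference of cold differences, 6 for the averaged genotypes and 9 for the averaged cold, and the block left the median differences between subunits at -0.04, 0.03, -0.01, 0.01 and -0.06, in the same order. For the named genes, 541 values kept their side of the threshold without 1 array, 150 lost it and 5 gained it; under the other settings 422 kept it, 92 lost it and 3 gained it, and 0 changed sign.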
